A study of Mus musculus with 18 samples.

Results

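The elastic fibre and microfibril genes described here are 10 listed genes: Eln, Fbn1, Mfap2, Mfap4, Mfap5, Fbln1, Fbln2, Fbln5, Emilin1 and Efemp2. They were taken by name from an expression table of 19937 genes. The list was chosen with earlier results of these data known. Of the 10, 8 had a probe set with a single symbol, 1 each. Fbn1, encoding fibrillin-1, and Efemp2, encoding fibulin-4, had no listed probe set and were not analysed here. Brown adipose tissue (BAT) and white adipose tissue (WAT) were profiled on 18 Affymetrix mouse gene arrays, each holding 1 sample. The mice were males on the C57BL/6J background, 10 weeks old and on chow. There were 5 wild-type (control) and 5 FXR samples of BAT, and 4 of each genotype in WAT. FXR mice overexpressed human FXR, the farnesoid X receptor, a nuclear receptor for bile acids, in adipose tissue. The labels name neither the promoter of the transgene nor the WAT depot, and leave it unstated if 1 animal gave both tissues. The samples of a group are called biological replicates, and p-values weigh group differences against the spread between them. The main fits that held both tissues treated all arrays as independent.

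Elastic fibres give stretch and recoil to vessels, skin, lung and the connective tissue of fat. A core of crosslinked elastin, the product of Eln, is laid down on a scaffold of microfibrils made of fibrillins. Microfibril-associated proteins bind fibrillin or elastin, fibulins bring elastin to the scaffold and to the crosslinking lysyl oxidases, and emilin-1 lies where elastin meets the microfibrils. Microfibrils also hold latent TGF-beta in the matrix.

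Values are the deposited intensities, in arbitrary units on a linear scale, and changes are differences of log2(intensity + 1), FXR minus control, with the standard error (SE) of limma. A gene was called where the limma p-value, adjusted over all 19937 genes after Benjamini-Hochberg, was below 0.05. The median intensity of an array was 93.1 to 99.9 for BAT but 60.5 to 61.7 for WAT, so levels of both tissues stood on different scales. For the weaker genes the level is also given as a multiple of the 1% quantile of the array. The tissue labels matched their markers: the 6 brown adipocyte genes summed to 19343 to 23719 on control BAT and 13159 to 16392 on FXR BAT arrays, against 349 to 376 in WAT. The muscle genes used as markers were high on FXR BAT 1, 2 and 4, and the protocol of control BAT 2 and 4 mentions a chow period of 6 weeks. The BAT changes are therefore also given without those arrays.

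**Figure D1:**
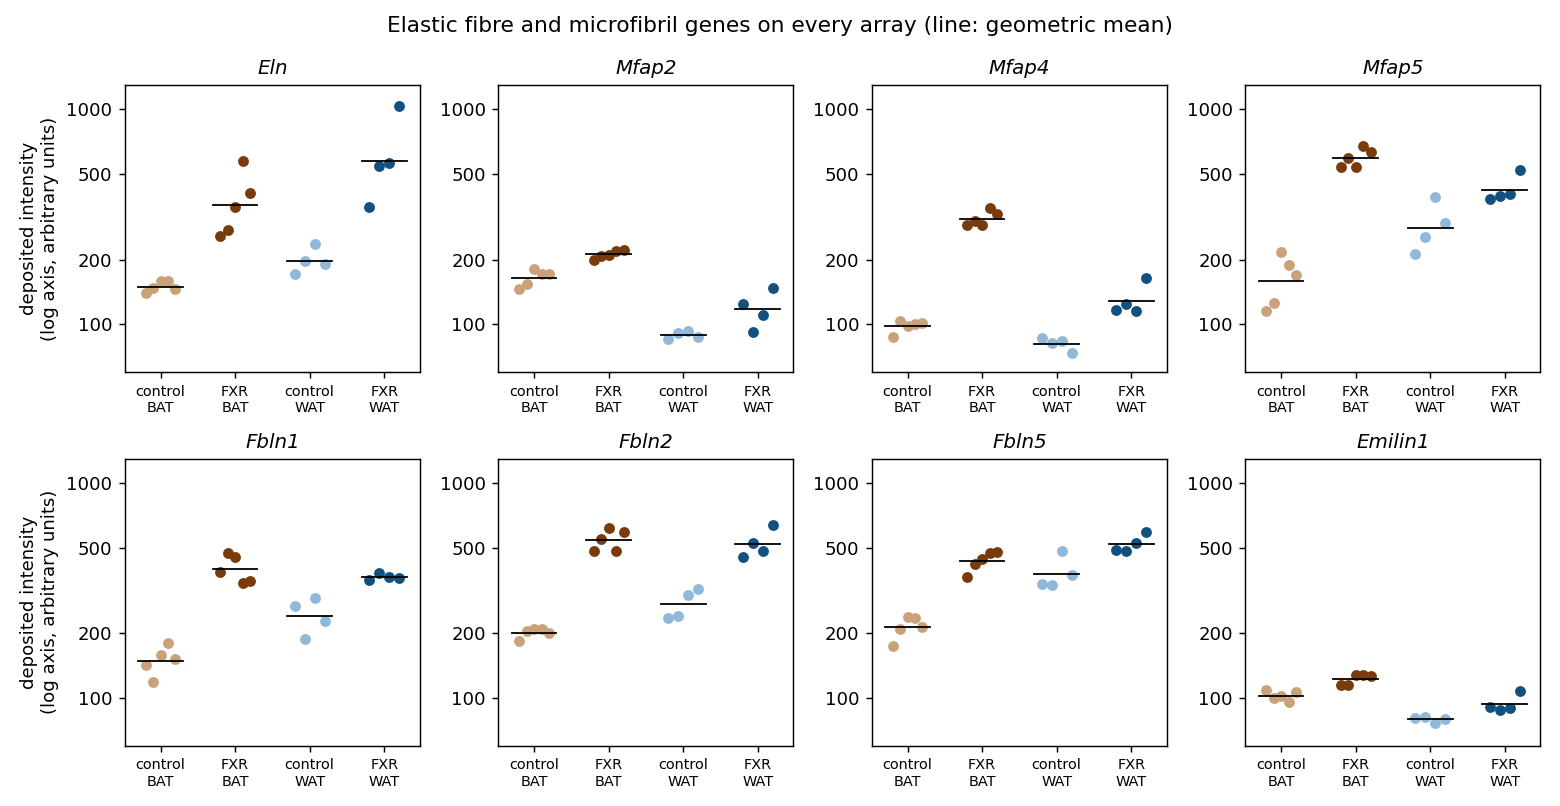
Deposited intensity (log axis, arbitrary units) of the 8 measured genes on each of the 18 arrays, by group, with the geometric mean of each group as a line. In BAT the FXR arrays lie above all control arrays for every gene, while in WAT Mfap2 and Mfap5 overlap between genotypes.

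In FXR BAT all 8 measured genes rose, from 1.19-fold for Emilin1 to 3.72-fold for Mfap5. Over all genes, 7.01% were called higher in this comparison. The 8 changes had a median of 1.33 log2 units, against 0.011 over all genes. Given how the list was chosen, its contrasts with all genes, here and in WAT, are descriptive only. FXR and control arrays did not overlap for any of the 8, where 5.89% of all genes lay wholly higher in FXR BAT. Without FXR BAT 1, 2 and 4, without control BAT 2 and 4, and without any single BAT array, the count of genes called higher was again 8. Leaving out FXR BAT 1, 2 and 4, the changes were 1.33 for Eln, 0.39 for Mfap2, 1.64 for Mfap4, 1.88 for Mfap5, 1.41 for Fbln1, 1.58 for Fbln2, 1.11 for Fbln5 and 0.30 for Emilin1. Leaving out control BAT 2 and 4, they were 1.27, 0.35, 1.69, 1.87, 1.39, 1.45, 1.07 and 0.21 in the same order, with the weakest adjusted p at 0.0457 for Emilin1 (limma).

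Elastin showed the widest spread among FXR arrays. Eln (probe set 10534343) read 139.8, 147, 159, 159 and 146 on control BAT 1 to 5, and 257, 276, 352, 578 and 408 on FXR BAT 1 to 5. The control values sat within 1.14-fold of each other, and those of FXR within 2.25-fold, with FXR BAT 4 the highest. The change was 1.25 ± 0.18 (SE, n = 5 and 5, adjusted p = 0.00113, limma).

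The microfibril-associated genes differed widely in the size of their change. Mfap4 (probe set 10376778), whose protein binds elastin and fibrillin fibres, read 87.2, 104, 98.2, 101 and 102 in control BAT. On the FXR arrays it read 289.6, 301, 289, 348 and 327. The groups lay far apart for their spread: the change of 1.65 ± 0.06 had the smallest p-value of the 19937 genes in BAT (adjusted p = 3.26e-07, limma). Mfap5 (probe set 10541496), encoding the microfibril protein MAGP-2, read 115, 126, 216, 189.8 and 170.3 in control BAT and 537, 592, 541, 676 and 635 in FXR BAT. Here the control arrays varied more, by 1.87-fold, than the FXR arrays, by 1.26-fold. The change of 1.89 ± 0.16 (adjusted p = 4.91e-05) ranked 14 among all genes when ordered from the largest rise downwards. Mfap2 (probe set 10509901), which encodes the related protein MAGP-1, moved far less. Its values were 146, 155, 181, 171 and 172 in controls and 199, 208, 210.1, 219 and 222 with FXR, a change of 0.36 ± 0.06 (adjusted p = 0.00187). The highest control array, 3, stayed below the lowest FXR array, 1.

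The 3 fibulin genes rose by similar amounts in BAT. Fbln1 (probe set 10425945), which encodes a fibulin of basement membranes and elastic fibres, read 143, 119, 158, 181 and 152 in controls and 385, 474, 455, 344 and 350.3 with FXR. The change was 1.41 ± 0.12 (adjusted p = 5.11e-05). Fbln2 (probe set 10540085), encoding fibulin-2 of elastic fibres and vessel walls, read 184, 204, 209, 209 and 201 in controls and 483, 550.2, 619, 484 and 590.1 with FXR. Its controls kept within 1.14-fold of each other, and its change of 1.43 ± 0.07 ranked 7 by p-value among all genes (adjusted p = 1.42e-06). Fbln5 (probe set 10402211), whose protein binds elastin and cell-surface integrins and is needed to assemble elastic fibres, read 174, 209.9, 238, 236 and 214 against 368, 419, 445, 476 and 478. It rose by 1.03 ± 0.09 (adjusted p = 7.62e-05), the smallest change of the 3. Emilin1 (probe set 10520604) encodes emilin-1, which also restrains TGF-beta processing. It read 109, 100.04, 102, 96.3 and 106 in controls and 115, 115, 128, 128 and 126 with FXR. These levels lay at 1.88 to 2.54 times the 1% quantile of the array, and the change was 0.25 ± 0.05 (adjusted p = 0.00463). Mfap4, with control BAT levels at 1.67 to 2.04 times that quantile, showed the larger change given above.

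Markers of several cell types moved with the genotype in BAT. Of 10 measured genes of adipose progenitors and fibroblasts, 9 rose and 1 did not pass, with a median change of 0.98, and their summed intensity was 3951 to 5948 on control and 8816 to 10295 on FXR arrays. Of 8 genes of smooth muscle cells and pericytes, 6 rose and 2 did not pass. Their median change was 0.23, with sums of 2481 to 2852 on control and 3081 to 3804 on FXR arrays. None of either list averaged below 1.5 times the 1% quantile in BAT. The smooth muscle genes Cnn1 (1.68 times) and Lmod1 (1.96 times) were nevertheless low on control BAT arrays. Of 7 macrophage genes, 7 rose, with sums of 855 to 1077 and 1489 to 1702. The 6 brown adipocyte genes all fell, with a median change of -0.63, and of 6 genes of mature adipocytes 5 fell. In BAT 1744 of all 19937 genes were called lower and 1398 higher. Of 8 endothelial genes, Kdr (-0.78), Eng (-0.50) and Egfl7 (-0.41) fell, Vwf rose (0.26) and 4 did not pass, with sums of 3507 to 4031 on control and 2588 to 3444 on FXR arrays. The sums of 9 skeletal muscle genes were 991.5 to 6479 on control arrays. They were 23518, 16291 and 24070 on FXR BAT 1, 2 and 4, and 1154 and 5050 on FXR BAT 3 and 5. Mesothelial genes, 0 of 7 called, summed to 606.5 to 651 and 614 to 657. In bulk tissue, more cells of a type and more RNA per cell cannot be told apart, and the part of these cell types in the elastic fibre changes was not tested. For skeletal muscle, the changes without FXR BAT 1, 2 and 4 are those given above.

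In FXR WAT 4 of the 8 genes rose, Eln, Mfap4, Fbln1 and Fbln2, and 4 did not pass. Over all genes 0.873% were called higher in WAT and 0.456% lower. The median of the 8 changes was 0.60, against 0.00097 over all genes. The arrays of both genotypes lay apart for 6 of the 8, with FXR higher, as for 4.31% of all genes.

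Eln had the third largest positive difference of all genes in WAT. It read 172, 197, 237 and 191 on control WAT 1 to 4 and 350.3, 544, 562 and 1033 on FXR WAT 1 to 4. The FXR arrays spanned 2.95-fold, and the lowest of them stood above the highest control. The difference was 1.54 ± 0.28 (SE, n = 4 and 4, adjusted p = 0.0383, limma). Fbln2 read 235, 241, 302 and 322 in control WAT and 454, 525, 481 and 639.9 in FXR WAT, a rise of 0.93 ± 0.13 (adjusted p = 0.0208). Fbln1 read 267, 188, 291 and 228 against 354, 381, 367 and 364. Its FXR arrays agreed within 1.08-fold, its controls within 1.54-fold, and it rose by 0.61 ± 0.12 (adjusted p = 0.0467). Mfap4 read 86.3, 81.6, 83.3 and 73.5 against 117, 125, 115 and 165, a rise of 0.66 ± 0.11 (adjusted p = 0.0290) from control levels of 1.58 to 1.86 times the 1% quantile.

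For the remaining genes the WAT values ran higher with FXR without passing the threshold. Mfap5 read 212, 256, 390.0 and 296 in control WAT and 384, 395, 405 and 523 in FXR WAT, a difference of 0.59 ± 0.17 (adjusted p = 0.174). Control WAT 3 alone reached into the FXR range. Fbln5 read 339, 335, 483 and 372 against 487, 485, 527 and 593, a difference of 0.46 ± 0.12 (adjusted p = 0.117), with control WAT 3 again the highest control and just short of the lowest FXR array. Mfap2 read 85.2, 90.9, 93.3 and 87.1 against 125, 92.2, 111 and 148, a difference of 0.39 ± 0.12 (adjusted p = 0.193). FXR WAT 2 lay within the controls, whose Mfap2 levels were 1.84 to 2.08 times the 1% quantile. Emilin1 read 81.0, 81.6, 76.8 and 79.6 against 91.1, 88.4, 90.3 and 108, a difference of 0.24 ± 0.06 (adjusted p = 0.120), with control levels at 1.71 to 1.75 times the 1% quantile.

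The WAT calls rested on few arrays and on settings. Eln was not called with a trended and robust eBayes (adjusted p = 0.0661, limma) or a pseudocount of 32 (0.0567), and Fbln1 not with that pseudocount (0.0600) or quantile normalization (0.0543). Leaving out control WAT 1 or control WAT 2 left 0 of the 8 genes called, while control WAT 4 or FXR WAT 2 left 1, FXR WAT 3 left 2 and control WAT 3 gave 6. The adjusted p of Eln was then 0.101 without control WAT 1, 0.118 without control WAT 2, 0.102 without control WAT 4, 0.0845 without FXR WAT 2 and 0.0748 without FXR WAT 3. That of Mfap4 was 0.0725, 0.0946 and 0.0865 without control WAT 1, 2 and 4, and 0.0672 without FXR WAT 2. Fbln2 had 0.0637 without control WAT 1 and 0.0695 without control WAT 2. Fbln1 lost its call without any 1 array other than control WAT 3, with adjusted p of 0.0627 to 0.129. Without control WAT 3, Mfap5 (0.74, adjusted p = 0.0441) and Fbln5 (0.58, adjusted p = 0.0169) passed. The differences of Eln and Fbln2 stayed positive in every such fit, Eln between 1.26 (without FXR WAT 4, adjusted p = 0.0319) and 1.78 and Fbln2 between 0.83 and 1.01.

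FXR WAT 4 gave the highest value of its group for 7 of the 8 genes, and control WAT 3 for 5 of 8 among controls. The summed fibroblast and progenitor genes were highest on the same arrays: 6576 on FXR WAT 4, where the next highest had 6208, and 6403 on control WAT 3, where the next highest had 4949. This was not particular to them. Macrophage genes, 0 of 7 called, also peaked there, at 1911 on FXR WAT 4 (next 1869) and 1737 on control WAT 3 (next 1437). Smooth muscle and mesothelial sums peaked on control WAT 3 among controls, but not on FXR WAT 4. None of the 10 fibroblast and progenitor genes passed in WAT (median change 0.27), nor did any of the 8 smooth muscle genes. The smooth muscle sums were 1130 to 1471 on control arrays, 2174 on FXR WAT 1 and 1426, 1552 and 1508 on FXR WAT 2 to 4. Epithelial genes, 0 of 4 called, summed to 255 to 268 on control arrays. On FXR WAT 1 they summed to 415, and on FXR WAT 2 to 4 to 249, 260 and 298. Mesothelial genes, 0 of 7 called, summed to 1046 to 1741 and 1530 to 1686. Some adipocyte genes moved with the genotype, while 0 of 6 brown adipocyte genes were called. Of 5 measured white-selective genes, Lep (1.30) and Mest (1.61) rose, Agt fell (-0.44) and 2, Hoxc8 and Hoxc9, did not pass. The median change of this list was -0.13. Its sums, raised by Lep and Mest, were 2304 to 2496 on control and 3274 to 4024 on FXR arrays. Of 6 genes of mature adipocytes Pparg fell (-0.29) and 5 did not pass, and their sums were 9485 to 10008 and 8514 to 9172. The endothelial sums overlapped, at 1383 to 1599.6 and 1083 to 1607, with 0 of 8 called. The part of these cell types in the WAT values was not tested, and the marker calls were not rerun without single arrays.

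**Figure D2:**
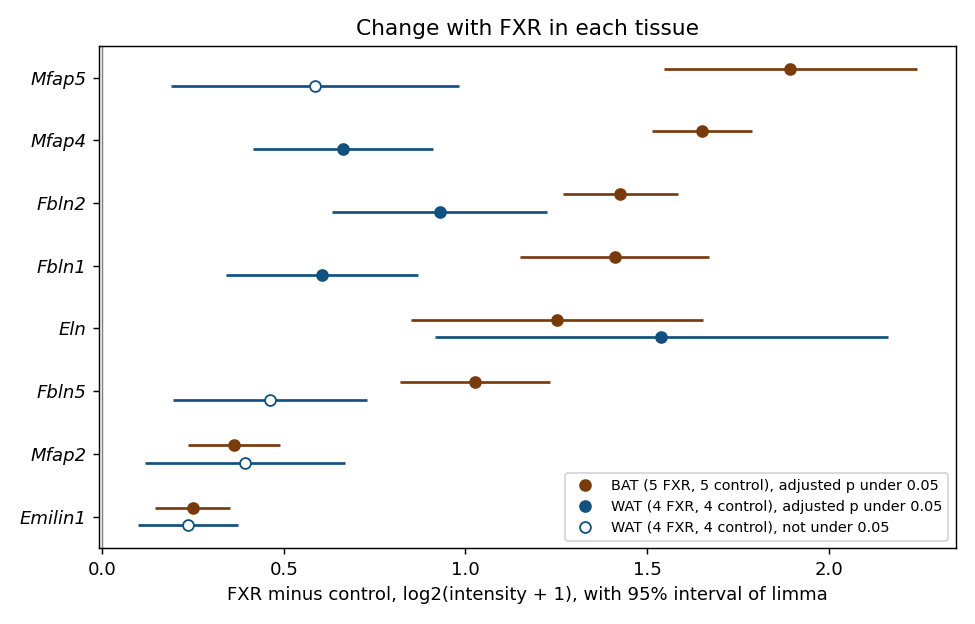
Change with FXR in BAT (brown, 5 and 5 arrays) and WAT (blue, 4 and 4 arrays) on the log2(intensity + 1) scale, with the 95% interval of limma; filled points passed the adjusted threshold of 0.05. The interval of Eln in WAT covers its BAT change, whereas the intervals of Mfap4, Mfap5, Fbln1, Fbln2 and Fbln5 do not overlap between tissues.

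The change with FXR was larger in BAT than in WAT for Mfap4, Mfap5, Fbln1 and Fbln5, while no member was called in the other direction. Over all genes 2.02% were called in the direction of these 4, and 4.44% in the other. The WAT change minus the BAT change, fitted over all 18 arrays, was -0.99 ± 0.13 for Mfap4 (adjusted p = 2.94e-04, limma), -1.31 ± 0.25 for Mfap5 (adjusted p = 0.00497), -0.81 ± 0.18 for Fbln1 (adjusted p = 0.0123) and -0.56 ± 0.16 for Fbln5 (adjusted p = 0.0423). Fbln2 had -0.50 ± 0.15 and did not pass (adjusted p = 0.0606). For Eln the difference was 0.29 ± 0.34 with a 95% interval of -0.44 to 1.02 (adjusted p = 0.729), so that equal, larger or smaller changes in WAT all fall within it. Those of Mfap2 (0.03, interval -0.26 to 0.31) and Emilin1 (-0.01, interval -0.18 to 0.15) did not pass either. The call of Fbln5 was lost in 11 of 18 fits that left out 1 array, with adjusted p up to 0.0895. Without control BAT 1 it was 0.0638, without control BAT 2 it was 0.0706, and without control BAT 5 it was 0.0518. Without FXR BAT 2, 4 and 5 in turn it was 0.0515, 0.0684 and 0.0737. The other such arrays were control WAT 3 (0.0701) and 4 (0.0667) and FXR WAT 1 (0.0895), 2 (0.0842) and 3 (0.0626). Fbln2 passed without FXR BAT 1 (0.0493), FXR BAT 4 (0.0494), control WAT 1 (0.0397) or FXR WAT 4 (0.0198). The call of Fbln5 was also lost after quantile normalization (adjusted p = 0.0625), with arrays centred on their median (0.0559), with a pseudocount of 32 (0.0529) and without control BAT 2 and 4 (0.0760), and those of Mfap4, Mfap5 and Fbln1 were not. Of the fibroblast and progenitor genes, 7 of 10 also changed more in BAT. Their part in these differences, and that of the lower WAT signal, was not tested.

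The tissue comparisons share the control arrays with the genotype comparisons, and the levels of the groups are set side by side on the deposited scale, on which the median gene was higher in BAT. On that scale control BAT held the lowest group mean for Eln, Mfap5, Fbln1, Fbln2 and Fbln5, and this was also so with arrays centred on their median and after quantile normalization. FXR BAT held the highest mean for Mfap2, Mfap4, Mfap5, Fbln1, Fbln2 and Emilin1 as deposited, for Mfap2 and Mfap4 alone with centring, and for Mfap4 alone after quantile normalization. The mean of FXR BAT minus that of FXR WAT went from 0.06 as deposited to -0.67 with centring for Fbln2, and from 0.12 to -0.61 for Fbln1. For Eln and Fbln5 FXR WAT held the highest mean on all 3 scales. The order of Mfap4, control WAT, control BAT, FXR WAT and FXR BAT with no overlap between neighbours as deposited, had both controls exchanged on the other scales. As deposited, neighbours overlapped between the FXR groups for Eln, Fbln1 and Fbln2, between control WAT and FXR BAT for Fbln5 and between FXR WAT and control BAT for Emilin1. In Mfap5 control BAT overlapped control WAT, which overlapped FXR WAT, and in Mfap2 FXR WAT overlapped both controls.

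In control tissue, as deposited, 3 genes were higher in BAT (Mfap2, Mfap4 and Emilin1) and 5 lower (Eln, Mfap5, Fbln1, Fbln2 and Fbln5). These counts stand against 94.8% of all genes called higher and 1.98% called lower, since the median gene itself was 0.59 log2 units higher in BAT. Fbln5 differed by -0.82 ± 0.12, Mfap5 by -0.82 ± 0.21, Fbln1 by -0.68 ± 0.14, Fbln2 by -0.44 ± 0.09 and Eln by -0.40 ± 0.08 (SE, n = 5 and 4, limma). In 1 fit over 18 arrays, where the spread is shared with the FXR groups, Eln was not called (-0.40 ± 0.24, adjusted p = 0.124). Relative to the median gene these were -1.41, -1.41, -1.28, -1.03 and -0.99. The same 5 genes were lower in BAT with each array centred on its median and after quantile normalization, the latter giving -2.13 for Fbln5 and -1.55 for Eln. The other 3 depended on the scale. Mfap4 went from 0.27 as deposited to -0.39 with centring and -0.47 with quantile normalization, and Emilin1 from 0.36 to -0.30 and -0.38. Mfap2 went from 0.88 to 0.21 and -0.025, the last not called (adjusted p = 0.702).

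**Figure D3:**
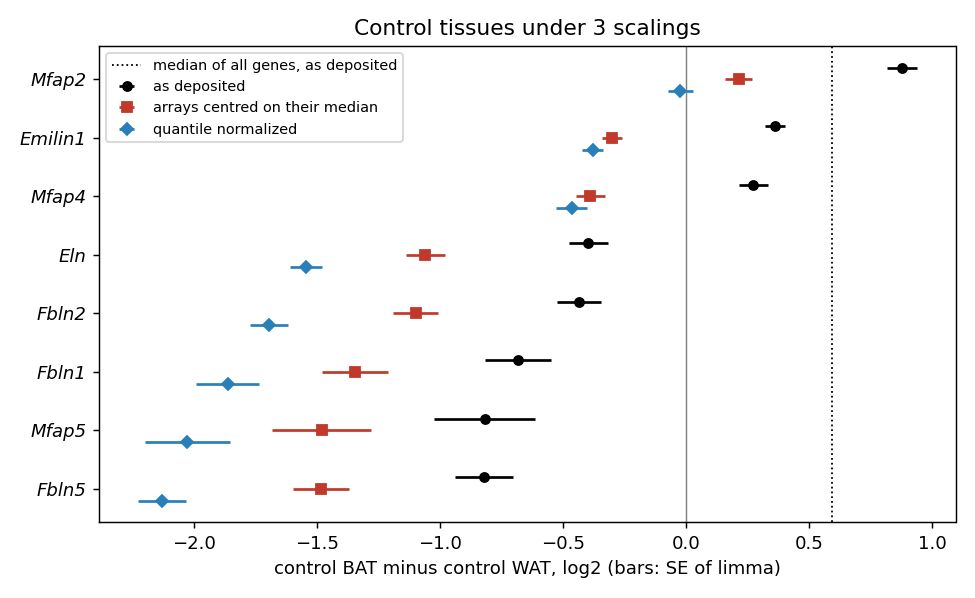
Difference between control BAT and control WAT (log2, bars give the SE of limma) as deposited, with arrays centred on their median and after quantile normalization; the dotted line marks the median of all genes as deposited, 0.59. Eln, Mfap5, Fbln1, Fbln2 and Fbln5 lie below 0 under all 3 scalings, whereas Mfap4 and Emilin1 cross it.

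Promoter sequence could be set beside some of the genes. RefSeq promoters (build GRCm38.p6) were held for 7 of the 10 genes, with 12 start sites in all: Fbn1, Mfap2, Fbln1, Fbln2, Fbln5, Emilin1 and Efemp2. Of these, Fbn1 and Efemp2 were not measured, which leaves 8 windows of 5 genes that rose in BAT, while Eln, Mfap4 and Mfap5 had no entry. The 250 bases before each start were searched on both strands for the nuclear receptor half-site AGGTCA, the FXR-type inverted repeat of that half-site with a spacer of 1 base, the SMAD palindrome GTCTAGAC, the GC box GGGCGG and the TATA box TATAAA. Among all 32851 promoters of this length, 14.02% held the half-site, 0.006% the inverted repeat, 0.167% the palindrome, 32.7% the GC box and 12.4% the TATA box. GC boxes stood in 8 of the 12 windows, of which 4 belong to the measured genes Mfap2, Fbln1, Fbln2 and Fbln5. The rest belong to Fbn1 and Efemp2, and the Efemp2 windows chr19:5474440-5474689 and chr19:5474485-5474734 share most of their bases and their GC boxes. The windows of Fbln1 overlap too, so the 12 are not independent of each other. The half-site stood in 3 windows, 2 of Mfap2 and 1 of Efemp2, and the letters of the inverted repeat, the palindrome and the TATA box in 0. Shown 5′ to 3′ are the windows of Fbln2 and Fbln1, called in both tissues, and of Mfap2 and Emilin1, with the smallest BAT changes; capitals mark matches to any of these motifs.
Fbln2, chr6:91212514-91212763, plus strand: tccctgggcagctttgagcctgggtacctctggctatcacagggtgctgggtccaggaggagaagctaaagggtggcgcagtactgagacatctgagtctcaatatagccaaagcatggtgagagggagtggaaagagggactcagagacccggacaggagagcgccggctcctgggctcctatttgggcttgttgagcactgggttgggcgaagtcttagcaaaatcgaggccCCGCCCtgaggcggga
Fbln1, chr15:85205758-85206007, plus strand: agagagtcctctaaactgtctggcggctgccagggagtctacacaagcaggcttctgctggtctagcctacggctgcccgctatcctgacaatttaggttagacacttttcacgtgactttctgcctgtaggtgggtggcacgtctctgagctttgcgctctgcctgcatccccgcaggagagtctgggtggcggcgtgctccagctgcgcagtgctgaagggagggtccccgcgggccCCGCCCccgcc
Mfap2, chr4:141010431-141010680, plus strand: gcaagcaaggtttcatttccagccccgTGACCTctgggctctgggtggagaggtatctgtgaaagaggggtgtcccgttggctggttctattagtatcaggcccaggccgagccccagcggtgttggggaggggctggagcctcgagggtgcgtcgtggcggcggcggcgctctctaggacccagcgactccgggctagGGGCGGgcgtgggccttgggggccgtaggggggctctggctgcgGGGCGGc
Emilin1, chr5:30913536-30913785, plus strand: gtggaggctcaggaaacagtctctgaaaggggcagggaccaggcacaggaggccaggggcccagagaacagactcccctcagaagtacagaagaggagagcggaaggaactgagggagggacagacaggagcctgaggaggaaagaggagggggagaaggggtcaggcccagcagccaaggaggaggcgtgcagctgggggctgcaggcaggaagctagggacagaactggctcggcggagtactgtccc
GC content was 58.8% for Fbln2, 62.4% for this start of Fbln1, 68.8% for this start of Mfap2 and 63.2% for Emilin1, against a median of 52.4% over all promoters. The other start of Fbln1 had 46.4% and that of Mfap2 51.2%, and neither of these windows, which are not printed, held a GC box. The single GC box of Fbln2 and that of Fbln1 lie near the end of the window, close to the start site. Mfap2 has 2 GC boxes and a half-site, and Emilin1 has none of the motifs. A match describes these letters only, and binding was not measured.

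Genes that act with elastic fibres had smaller median changes than the fibre genes themselves. The lists were chosen with earlier results of these data known, so this contrast is descriptive only. The counts of called genes stand beside 7.01% of all genes called higher in BAT and 0.873% in WAT. Among 12 relatives (a fibrillin, fibulins, emilins, multimerins, hemicentin and latent TGF-beta binding proteins), 4 rose in BAT and 8 did not pass, with a median of 0.085. These were Ltbp4 (0.36 ± 0.05), which anchors latent TGF-beta and is needed for elastic fibre assembly, Ltbp1 (0.33), Emilin2 (0.35) and Fbln7 (0.26). In WAT 2 of the 12 rose, Ltbp4 by 0.63 ± 0.09 (adjusted p = 0.0188, limma) and Ltbp1 by 0.29, with a median of 0.052. Fbn2, encoding fibrillin-2 of developing tissue, differed by 0.067 in BAT and 0.031 in WAT and passed in neither.

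Of 4 measured crosslinking enzymes, 3 rose in BAT: Lox (0.89 ± 0.08, adjusted p = 7.63e-05), the lysyl oxidase that joins elastin and collagen chains, Loxl3 (0.32) and Loxl4 (0.16). Loxl1, which is tied to elastin through fibulin-5, had 0.32 ± 0.12 and did not pass. In WAT it was Loxl1 that rose (0.54 ± 0.09, adjusted p = 0.0315), while Lox had 0.64 ± 0.14 (adjusted p = 0.0657). The medians were 0.32 and 0.36. None of the 4 passed the test of the difference between tissues.

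Of 8 ADAMTS and ADAMTS-like genes, whose proteins bind microfibrils, 4 rose in BAT (median 0.27). Adamts6 rose by 0.31, Adamtsl2 by 0.28 and Adamtsl4 by 0.32, and Adamts10 by 0.25. In WAT only Adamtsl2 was called (0.53 ± 0.05, adjusted p = 0.00432; median of the 8, 0.066). Among 7 integrin genes, 4 rose in BAT and 0 in WAT (medians 0.27 and 0.21), with Itga8 at 0.31, Itgb5 at 0.57 and Itga5 at 0.27 in BAT. Far fewer of all genes were called higher in WAT (0.873%) than in BAT (7.01%). Only 1 of the 7, Itga8, passed the test of the difference between tissues. Of 3 TGF-beta ligands, Tgfb3 rose in both tissues, by 1.02 ± 0.04 in BAT and 0.41 ± 0.06 in WAT, and Tgfb1 and Tgfb2 passed in neither (list medians 0.13 and 0.087). The smaller WAT change of Tgfb3 passed the test of the difference (-0.62 ± 0.07, adjusted p = 1.88e-04).

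Enzymes that degrade elastin rose beside it in BAT. Of 11, 6 rose and 5 did not pass (median 0.23), led by the gelatinase gene Mmp2 (0.93 ± 0.09), the macrophage elastase gene Mmp12 (0.67 ± 0.07) and the cathepsin gene Ctss (1.09 ± 0.12). In WAT 2 rose, Mmp2 by 0.91 ± 0.12 and the cathepsin gene Ctsl by 0.66 ± 0.08, and 2 fell, Mmp9 (-0.54 ± 0.09) and the neutrophil protease gene Prtn3 (-0.35 ± 0.07), with a median of 0.34. Mmp12 differed by 0.98 ± 0.26 in WAT without passing (adjusted p = 0.125). The change of Ctsl was larger in WAT than in BAT (difference 0.43 ± 0.11, adjusted p = 0.0257), that of Itga8 smaller (-0.26 ± 0.07, adjusted p = 0.0236), and Prtn3 differed too (-0.35 ± 0.07, adjusted p = 0.00691). These calls of partner genes in WAT and between tissues were not rerun without single arrays.

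**Figure D4:**
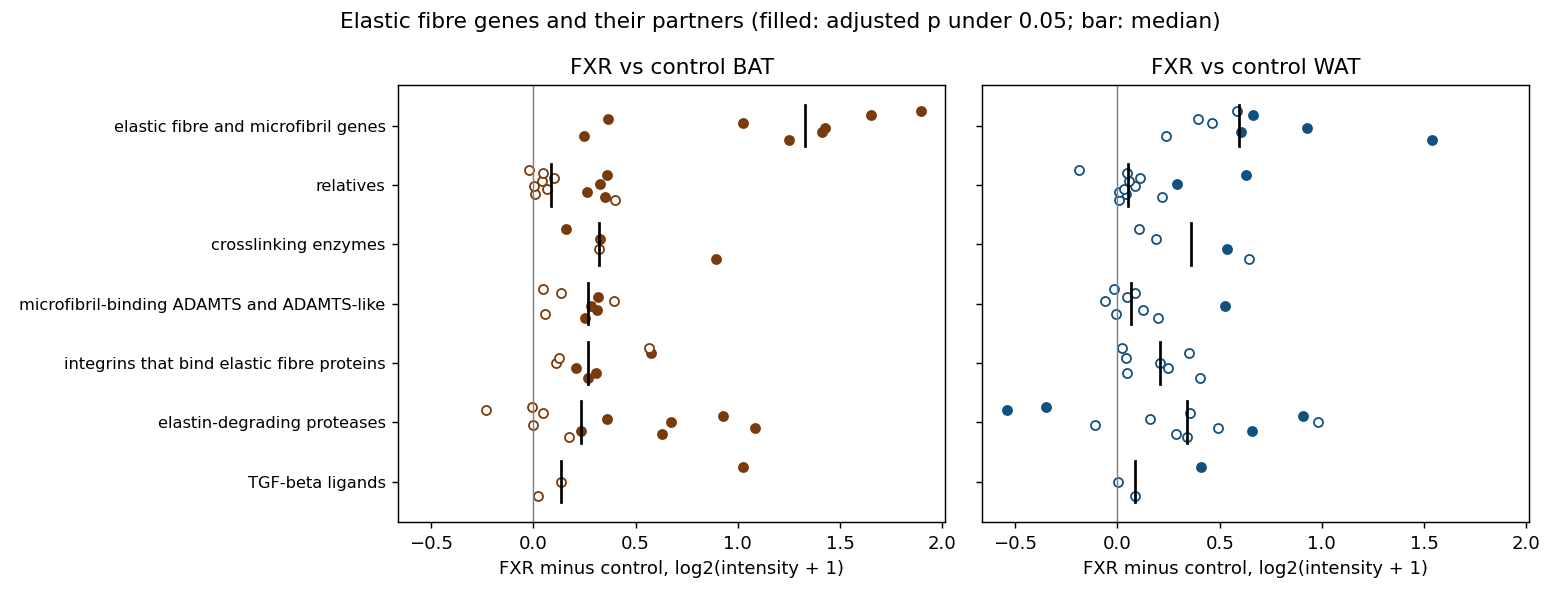
Change with FXR (log2) of each measured elastic fibre gene and of 6 lists of partner genes in BAT and WAT; each point is a gene, filled where the adjusted p of limma was below 0.05, and bars are list medians. The median of the elastic fibre genes (1.33 in BAT, 0.60 in WAT) lies to the right of those of the partner lists, which run from 0.085 to 0.32 in BAT and from 0.052 to 0.36 in WAT.

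Across the 18 arrays, each taken relative to the control mean of its tissue, the nearest genes were sought for each listed gene that changed by at least 1 log2 unit. Distance is the root mean square of the log2 differences between both profiles. Mfap4 lay nearest to Pcolce, the procollagen proteinase enhancer (0.152), then to the collagen genes Col1a2 (0.204) and Col8a1 (0.216). Mfap5 lay nearest to Col14a1 (0.206), Bgn (0.207) and Gpc3 (0.252), and Fbln1 to Serpinf1 (0.160), Pdgfra (0.164) and Islr (0.220). For Fbln2 these were Serpinf1 (0.186), Sfrp1 (0.212) and Olfml3 (0.217), and for Fbln5 Tgfb3 (0.128), Rcn3 (0.139) and C3ar1 (0.153). Eln had no close neighbour: Col1a1 was nearest at 0.418, followed by Fstl1 (0.464) and Olfml3 (0.468). Among the elastic fibre genes, Fbln2 was nearest to Eln (0.434), to Mfap4 (0.240) and to Fbln1 (0.255).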

How the data were processed

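Biotin-labelled cDNA from 500 ng of total RNA was hybridised to Affymetrix mouse gene arrays, per the labels' protocols. The authors deposited 1 linear intensity per probe set and array. Their background correction, summarisation, normalization and software are not given in the sources used here. The platform annotation gave a single symbol to 21640 of the 34760 probe sets, several symbols to 1321 and none to 11799. Each gene was represented by its brightest probe set (highest mean log2 level across the 18 arrays), giving 19937 genes. Here log2(intensity + 1) was computed from the deposited intensities and no gene was removed.

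Groups follow the sample titles. limma 3.58.1 (lmFit, eBayes) was run in R 4.3.3, two-sided, with Benjamini-Hochberg adjustment over all genes: BAT over 10 arrays, WAT over 8, the difference of both changes over 18 and the control tissues over 9. The fits were tested on simulated data with 200 changed genes. For a change of 1 log2 unit, 97% were recovered in BAT and 97% in WAT. Of the genes called, 4.0% in BAT and 5.4% in WAT were false. The changed genes were picked at random and given normal noise of their own spread. These shares therefore give no sensitivity for the listed genes, whose WAT calls depended on single arrays. Array number limits the precision, and no 2 arrays were identical.

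All listed genes are named. From each partner list up to 3 called genes with the smallest adjusted p are named per comparison. The 3 nearest genes are given for members that changed by at least 1 log2 unit. Fbln7, Adamts10, Prtn3 and the partner genes given without a call are further list genes given after their values were seen. The group order on other scales was computed after seeing the data. The listed genes and the partner and marker lists were chosen with earlier results of these data known.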

Additional observations from a re-analysis of the deposited data

Results flagged for a closer look

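Emilin1 on FXR WAT 4 stood apart from the rest of its group. Its log2 level was 6.77 (intensity 108), and the other 3 FXR WAT arrays read 88.4 to 91.1. It was the only value to do so among 32 sets of 1 gene in 1 group of 4 or 5 arrays. Since chance gives about 5% of sets, 1 such value in 32 sets is not beyond chance. The same array was the highest of its group for 7 of the 8 genes. Without it, the Emilin1 difference in WAT was 0.17 ± 0.03 (adjusted p = 0.0797, limma).

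The change with FXR differed between tissues for 4 genes in the interaction term of limma over 18 arrays. The WAT change minus the BAT change was -0.99 for Mfap4, -1.31 for Mfap5, -0.81 for Fbln1 and -0.56 for Fbln5. All 4 changes were positive in both tissues, with every FXR array above every control array in BAT.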

How the results depend on the processing

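Of 648 single-gene values recomputed under an alternative, 595 kept their direction and side of the threshold, 38 lost a call, 10 gained 1 and 5 reversed. All 5 reversals lay between the control tissues: with quantile normalization Mfap2 was -0.025, Mfap4 -0.47 and Emilin1 -0.38, and with arrays centred on their median Mfap4 was -0.39 and Emilin1 -0.30. There 0 listed genes were then called higher in BAT with quantile normalization and 1 with centring. Over all genes that comparison gave 5811 higher and 5736 lower with quantile normalization and 7216 and 9324 with centring, and 9208 higher among genes above the median level. In BAT all 8 genes remained called under each alternative run. Over all genes in BAT, centring gave 776 higher and 4076 lower, leaving out control BAT 2 and 4 gave 704 and 712, and leaving out FXR BAT 1, 2 and 4 gave 920 and 993, against 1398 and 1744. In WAT 2 listed genes were called with a pseudocount of 32, quantile normalization gave 141 lower genes in all, and 1 fit over 18 arrays gave 294 higher, against 91 and 174. Leaving out 1 array gave 0 to 6 listed genes in WAT, and 23 to 243 higher and 22 to 93 lower in all. For the difference between tissues, 464 genes were higher with quantile normalization, 1627 higher and 245 lower with centring, and 487 and 240 without control BAT 2 and 4, against 885 and 403. Leaving out 1 array gave 279 to 621 lower. The cause of these shifts was not tested, and some of these fits also held fewer samples or genes. Replicate numbers are shared between groups. Correlations of the deviations of same-numbered arrays were -0.493 to 0.276 between genotypes and -0.083 to 0.256 between tissues, where 7 of 8 were positive. Not every pair passed 0.1, so the numbers were not used as pairs, and whether they mark shared animals was not settled. A further fit took the replicate number as a block. Such a block joins same-numbered arrays of both genotypes, which are different mice, so this fit did not model shared animals. In it 8 listed genes were called in BAT, 4 in WAT and 5 for the difference between tissues. For that difference Fbln2 was gained (adjusted p = 0.0492, limma). Precision is limited by the number of arrays. Mfap4 and Emilin1 in the controls of both tissues lay within 1.58 to 2.14 times the 1% quantile of their arrays. Mfap2 in control WAT lay at 1.84 to 2.08 times that quantile.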
